A study of Homo sapiens with 4 samples.

Results

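A set of 179 names, of the 29123 on the array, read at least 16-fold higher in the KO than in the Ctrl channel, by background-subtracted signals relative to the array median, on both arrays labelled as GALNT3/T6 KO. They are 0.615% of all names, and they were chosen by these measured values. For each array, M is the log2 of the KO over the Ctrl signal after subtraction of the local background, with signals floored at 1, spots of a probe averaged and the array median subtracted. A name was kept if a probe of it had M of at least 4 on both arrays, with the KO channel well above background on both. The set holds 137 protein-coding genes, 25 keratin 18 or keratin 8 copies (pseudogenes and 1 transcript cluster), 4 long non-coding RNAs (HOTAIRM1, SNHG18, HEIH and CRNDE), 1 other pseudogene and 12 probes with no gene name. In all, 195 probes passed, and 142 of the 179 names matched a current RefSeq symbol. Because M on these 2 arrays chose the names, it is given as a description and carries no test.

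A2780s is an established human epithelial ovarian cancer (EOC) cell line. The series compares 2 GALNT3 KO clones, in which GALNT3 was disrupted with CRISPR/Cas9, and 2 GALNT3/T6 KO clones, in which a lentiviral shRNA against GALNT6 was added to GALNT3 KO clones, each with RNA of a mock-transfected Ctrl clone of the same line. GALNT3 and GALNT6 are enzymes that start mucin-type O-glycosylation. Each KO clone was hybridized with Ctrl RNA on a 2-colour whole genome array, with Ctrl in Cy3 and KO in Cy5 on all 4 arrays by the labels, so a dye effect of a probe cannot be told apart from a KO effect. All groups share the A2780s background, and by the labels both KO groups carry the GALNT3 disruption. The lentiviral vector and the further puromycin selection for it came with the second group alone and cannot be told apart from it. By the methods, GALNT3 KO clones had also been selected with puromycin, and its resistance gene was then excised with Cre. Each clone grew from its own founder. The methods speak of corresponding Ctrl clones, and whether 1 Ctrl extract served all arrays is not given in the sources used here. With 2 clones a group, the number of arrays limits the precision.

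The targeted genes were read first. GALNT3 itself belongs to the set. Its single probe (chr2:166604416-166604475, hg19) had M of 5.13 and 5.43 on the arrays labelled as GALNT3/T6 KO, which goes against the label. On the 2 GALNT3 KO arrays it was well above background in neither channel, Ctrl included, so it gives no fold there and checks nothing. Whether the probe lies in the disrupted part of the gene is not known here. GALNT6 had log2 ratios of -0.66 and -0.69 on the arrays labelled as GALNT3/T6 KO (adjusted p = 0.00335 from limma) and of -0.47 and -0.38 on the GALNT3 KO arrays (adjusted p = 0.0447). Since GALNT3 was higher where the label says KO, the group is named by its label throughout. Exchanged channels, arrays or clones were not tested, and the methods speak of reverse-colour labelling without saying which arrays it concerns. If the channels of these arrays were exchanged, each value given as higher in KO would be higher in Ctrl, and each count of higher genes on them would be one of lower genes.

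A gene that is silent in one cell and strongly transcribed in another can be held off by methylation of the CpG sites in its promoter, by Polycomb complexes, by histone deacetylases, by methylation of histone H3 at lysine 9, or by a transcriptional repressor, or it can simply lack its activator. Keratins 8 and 18 form the filaments of simple epithelia, where KRT19 and KRT7 are also found. Repressors of the SNAI, ZEB and TWIST families hold epithelial genes down in mesenchymal cells. Processed pseudogenes of KRT18 are scattered over the genome and carry nearly the same letters as the KRT18 mRNA, so an array probe for a copy can bind the mRNA itself.

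The keratin 18 family shows what the set is made of. Of 4 probes for KRT18, 3 passed, and the best (chr12:53346116-53346554, hg19, a stretch that holds an intron) had M of 5.93 and 6.35 while the GALNT3 KO pair gave 0.84 and 0.48. The other KRT18 probe stood at 0.61 and 0.52 and is placed on the opposite strand. Of 40 probes for keratin 18 copies, 24 passed, with medians over the 40 of 4.25 and 4.76, and the highest were KRT18P68 at 5.71 and 6.80 and KRT18P42 at 5.70 and 6.72. Keratin 8 behaved less strongly, with neither KRT8 probe passing (2.51 to 2.81 on the first array, 2.92 to 3.45 on the second) and 1 of 27 probes for its copies. The probes below are printed because they show how much letter sequence a KRT18 probe and a copy's probe share. Capitals mark the bases that are identical in the stretch where the probe pair overlaps, and coordinates are those of hg19 in the array file.
KRT18 (chr12:53344612-53344671, + strand): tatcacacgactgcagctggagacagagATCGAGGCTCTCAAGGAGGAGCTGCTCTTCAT
KRT18P33 (chr2:65894205-65894264, + strand): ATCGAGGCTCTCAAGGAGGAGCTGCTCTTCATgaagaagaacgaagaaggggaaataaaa
KRT18 (chr12:53345577-53345636, + strand): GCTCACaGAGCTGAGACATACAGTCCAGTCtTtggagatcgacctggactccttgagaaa
KRT18P34 (chr3:156880829-156880888, - strand): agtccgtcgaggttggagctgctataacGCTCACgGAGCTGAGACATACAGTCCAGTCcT
KRT18 (chr12:53346116-53346554, + strand): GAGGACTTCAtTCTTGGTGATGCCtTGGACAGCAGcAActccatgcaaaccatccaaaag
KRT18P64 (chr6:85998574-85998633, + strand): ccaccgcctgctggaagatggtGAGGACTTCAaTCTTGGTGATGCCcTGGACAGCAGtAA
KRT18 and KRT18P33 were identical over an overlap of 32 bases, KRT18 and KRT18P34 over 30 of 32, and KRT18 and KRT18P64 over 35 of 38. Each of these probes was chosen for its M, so their M is a description. M was 5.18 and 6.08 for that KRT18 probe and 4.22 and 4.51 for KRT18P33, the widest gap of the 3 pairs, though this pair had no mismatch in its overlap. M was 4.08 and 4.70 for the second KRT18 probe and 4.73 and 5.57 for KRT18P34. M was 5.93 and 6.35 for the third and 5.35 and 5.97 for KRT18P64. Of the 25 copies in the set, 14 had a probe that overlapped another family probe by at least 25 bases at 75% identity or more, and so did 4 of the 12 probes with no gene name. The source of the signal of these copies is uncertain, and they are not counted below as separate genes unless said.

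Of the 137 genes, 100 had a RefSeq promoter, under the share of 80% set for a check of the whole set, so no share of CpG-rich promoters is given. The 250 bases before the start of 5 genes are printed as single examples, from RefSeq with GRCh38.p14 coordinates. S100A6 had the highest M, and in GATA6, LYPLAL1, GALNT3 and BEX1 the Ctrl channel was not well above background on either GALNT3 KO array. Capitals mark each CpG site, the letters CG, where DNA methylation can act.
S100A6 (chr1:153535992-153536241, - strand): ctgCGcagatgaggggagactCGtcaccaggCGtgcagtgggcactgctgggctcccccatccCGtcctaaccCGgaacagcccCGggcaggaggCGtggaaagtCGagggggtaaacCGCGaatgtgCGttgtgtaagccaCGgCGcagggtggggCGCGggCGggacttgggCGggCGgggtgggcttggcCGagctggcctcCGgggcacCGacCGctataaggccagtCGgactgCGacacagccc
GATA6 (chr18:22169339-22169588, + strand): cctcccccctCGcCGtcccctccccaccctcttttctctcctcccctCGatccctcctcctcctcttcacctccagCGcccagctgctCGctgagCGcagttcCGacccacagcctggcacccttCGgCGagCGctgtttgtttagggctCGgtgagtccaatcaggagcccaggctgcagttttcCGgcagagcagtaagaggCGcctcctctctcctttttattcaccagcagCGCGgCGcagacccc
LYPLAL1 (chr1:219173628-219173877, + strand): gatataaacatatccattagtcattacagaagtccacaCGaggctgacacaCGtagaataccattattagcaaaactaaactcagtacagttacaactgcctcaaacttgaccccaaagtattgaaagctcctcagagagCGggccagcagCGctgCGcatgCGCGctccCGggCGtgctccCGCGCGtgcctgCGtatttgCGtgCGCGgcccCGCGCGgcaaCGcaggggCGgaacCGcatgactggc
GALNT3 (chr2:165794248-165794497, - strand): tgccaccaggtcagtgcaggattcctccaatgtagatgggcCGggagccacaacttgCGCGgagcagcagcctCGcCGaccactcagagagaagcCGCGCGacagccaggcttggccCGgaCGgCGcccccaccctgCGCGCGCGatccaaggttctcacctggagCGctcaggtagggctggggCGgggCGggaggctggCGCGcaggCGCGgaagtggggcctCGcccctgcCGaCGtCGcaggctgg
BEX1 (chrX:103064172-103064421, - strand): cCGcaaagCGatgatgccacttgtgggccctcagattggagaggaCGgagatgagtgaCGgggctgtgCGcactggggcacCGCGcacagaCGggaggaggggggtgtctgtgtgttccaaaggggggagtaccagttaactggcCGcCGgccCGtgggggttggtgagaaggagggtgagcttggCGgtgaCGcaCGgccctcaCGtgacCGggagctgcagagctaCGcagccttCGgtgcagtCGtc
The window held 24 CG in S100A6, 16 in GATA6, 22 in LYPLAL1, 26 in GALNT3 and 19 in BEX1. The GC content was 70%, 64.4%, 56%, 71.6% and 65.6% in the same order. Observed over expected CG was 0.80, 0.70, 1.13, 0.81 and 0.76, each past the usual limit of 0.6 for a CpG-rich window. Other genes of the set lay below that limit over the whole RefSeq window, which also takes in a short stretch after the start, with 0.00 in ANXA1 and SAMD9L, 0.08 in IFI16 and 0.25 in CASP4. SSTR1, a somatostatin receptor whose Ctrl channel was also below background, had 0.47. The arrays do not measure methylation, so these letters say nothing of its state.

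The highest M belonged to calcium-binding, redox and surface proteins. S100A6, a small calcium-binding protein (chr1:153507255-153507685, hg19), had M of 7.20 and 7.52 on the arrays labelled as GALNT3/T6 KO while the GALNT3 KO pair of arrays gave 0.30 and 0.75. GPX1, which reduces hydrogen peroxide with glutathione (chr3:49394621-49394680), had M of 7.10 and 7.37 against 0.77 and 0.70. PODXL, the sialomucin podocalyxin (chr7:131185135-131185194), had M of 6.48 and 7.25 against 0.12 and 0.03. None of these genes came near the limit of 4 on a GALNT3 KO array. The same held for the whole set, in which the highest M on a GALNT3 KO array was 2.92 (ENC1). Medians over the 179 names were 4.56 and 4.89 on the arrays labelled as GALNT3/T6 KO and 0.12 and 0.16 on the GALNT3 KO arrays, and 149 names lay between -1 and 1 on both of the latter. The second array labelled as GALNT3/T6 KO read higher than the first in 145 of 179 names, with a median gap between the 2 arrays of 0.40 and a largest gap of 1.48.

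**Figure D1:**
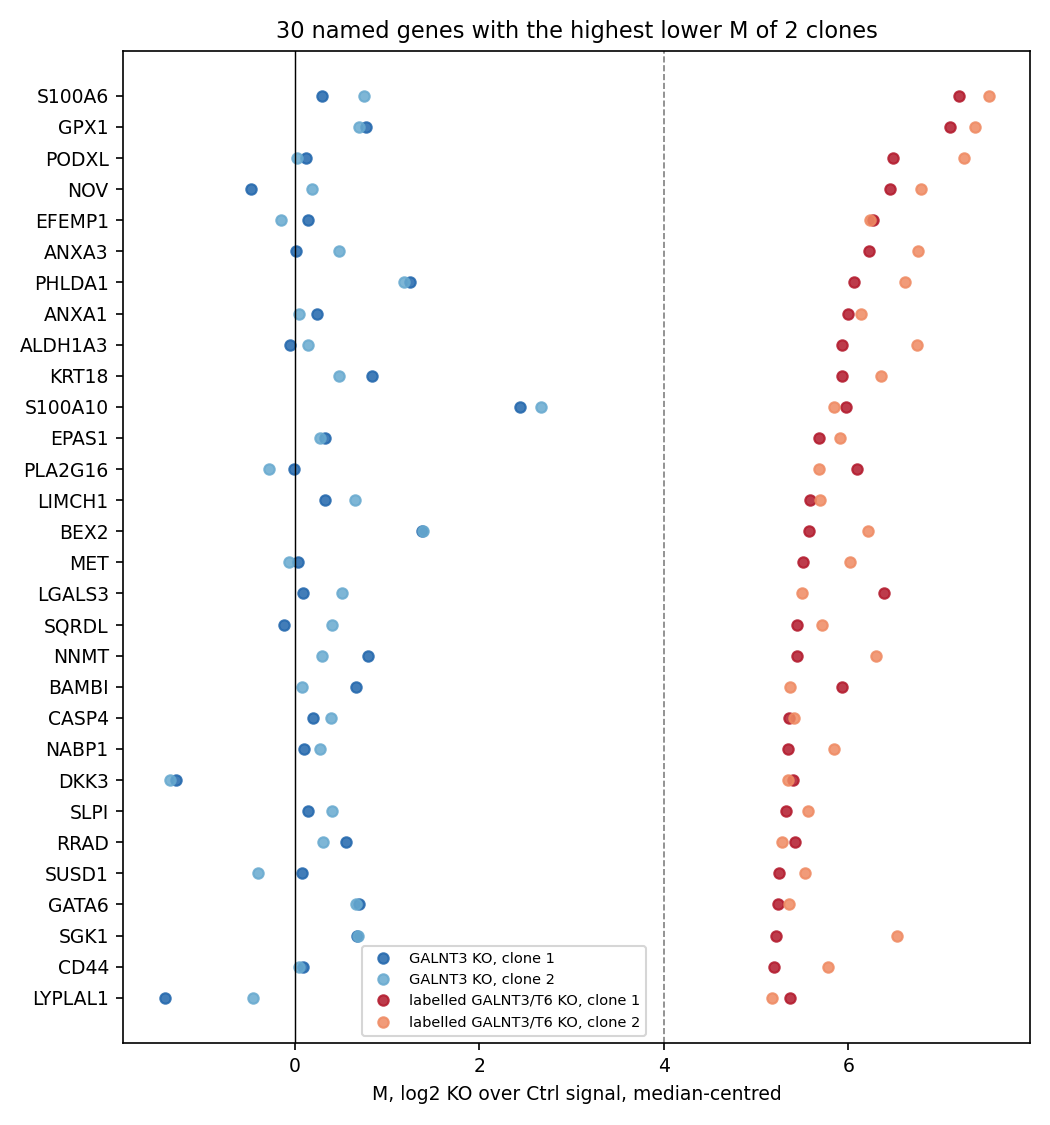
M, the median-centred log2 of KO over Ctrl signal, is plotted for the 30 named genes with the highest value of the lower M on the arrays labelled as GALNT3/T6 KO (red and orange, 1 point per clone) and on the GALNT3 KO arrays (blue). The dashed line is the limit of 4. S100A6 is at 7.20 and 7.52, and on the GALNT3 KO arrays S100A10 stands furthest right, at 2.44 and 2.67.

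NRP1 (4.0 and 4.40), the lncRNA CRNDE (4.64 and 4.01) and KRT18P40 (4.01 and 4.44) were the last inside. LIFR, a cytokine receptor (3.99 and 4.06), the probe A_24_P230486 (3.99 and 4.32) and NFIB, a transcription factor (3.99 and 5.08), were the first outside. The values ran on across the limit without a gap.

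S100 proteins and annexins were in the set, with 2 members each. ANXA3 (6.22 and 6.76) and ANXA1 (6.00 and 6.14), which bind phospholipids when calcium rises, were at 0.01 and 0.48 and at 0.24 and 0.05 on the GALNT3 KO arrays. S100A10, the binding partner of annexin A2, had M of 5.97 and 5.85 and also 2.44 and 2.67 on the GALNT3 KO arrays. The other genes of these families are those outside the set, which the rule did not choose, and they were tested with limma over 27221 genes at an adjusted p of at most 0.05. By that test, on the arrays labelled as GALNT3/T6 KO, 24.8% of all genes rose and 23.1% fell. These shares are the background for each later count of list genes on these arrays. Of 15 other S100 genes, 6 were higher and 3 lower, and of 10 other annexins, 7 were higher and 1 lower (median log2 ratio 0.82, against 0.03 over all genes).

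Junction and surface genes were also in the set. KRT19 (4.93 and 5.76), MAL2, which acts in apical transport (4.86 and 5.56), and CD44, a hyaluronan receptor (5.20 and 5.78), stood at 0.50 and 0.37, 0.09 and 0.44, and 0.09 and 0.05 on the GALNT3 KO arrays. PERP (4.49 and 4.54) and DSC3 (4.25 and 4.09) are parts of desmosomes, CLDN1 (4.24 and 4.39) of tight junctions, and VCAM1 (4.13 and 4.04) binds integrins of leukocytes. These junction genes lay in the lower range of the set. Of 53 other junction and adhesion genes, 30 were higher and 5 lower (median 0.44). Of 19 other integrins, 9 were higher and 2 lower, while ITGB8, an activator of latent TGF-beta, was in the set at 4.66 and 4.83 by 1 of its 4 probes.

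Secreted and matrix proteins came next. EFEMP1, the matrix protein fibulin-3 (6.27 and 6.24), NOV, the CCN family member now named CCN3 (6.45 and 6.79), and TGFBI (5.17 and 6.17) led it. The laminin chains LAMB1 (4.90 and 5.70) and LAMA4 (4.30 and 4.82) form basement membranes, and CYR61, now CCN1, was at 4.11 and 4.75. Of 65 other matrix genes, 34 were higher and 10 lower (median 0.72). SLPI, a secreted inhibitor of neutrophil elastase (5.32 and 5.56), and PRSS23, a serine protease (5.08 and 5.21), passed with all of their probes. Of 75 other proteases and inhibitors, 42 were higher and 9 lower.

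Ligands and receptors of several pathways were in the set. Among ligands and their antagonists were DKK3, a member of the Dickkopf family (5.40 and 5.35), GREM1, which binds BMPs (5.16 and 4.76), the inflammatory cytokine IL18 (4.58 and 4.79) and the insulin-like growth factor binding protein IGFBP7 (4.64 and 5.38). Among receptors were MET, the receptor of hepatocyte growth factor (5.51 and 6.02), ROR1, a receptor tyrosine kinase (5.29 and 4.67), TNFRSF11B, the decoy receptor osteoprotegerin (4.65 and 5.07), and OXTR, the oxytocin receptor (4.5 and 4.88). Of these, DKK3 and OXTR were below 0 on both GALNT3 KO arrays, at -1.29 and -1.35 and at -0.79 and -0.83. The OXTR call rests on 1 of 2 probes, and other probes of DKK3, MET, ROR1 and TNFRSF11B did not pass. Of 80 other cytokines and growth factors, 51 were higher and 10 lower (median 0.75). Of 93 other receptors and signalling genes, 51 were higher and 13 lower (median 0.44).

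Genes of innate immunity were in the set, some of them neighbours. CASP4 (5.36 and 5.41), a caspase that senses bacterial lipopolysaccharide, CASP1 (5.10 and 5.18), the caspase that matures IL18, and CARD16 (4.72 and 4.88), a short relative of CASP1, lie near each other on chromosome 11, with CASP5, which is outside the set, among them. IFI16, a DNA sensor, was at 5.15 and 5.40 by both of its probes. SAMD9L (4.86 and 5.01) and SAMD9 (4.61 and 4.82) are antiviral neighbours on chromosome 7, and GBP3 was at 4.74 and 4.45. By the best probe of each, the M of these 7 genes on the GALNT3 KO arrays lay between 0.06 (SAMD9L) and 0.65 (CASP1). Other probes differed. SAMD9 probes just short of the limit, at 3.71 and 3.83 and at 3.90 and 3.97, gave -1.58 and -0.79 and -2.24 and -0.37 there. Another SAMD9 probe gave 0.34 and 1.38. The other GBP3 probe (3.83 and 3.96) gave -0.44 and -0.10. Of 63 other interferon-stimulated genes, 46 were higher and 4 lower (median 1.06), and of 26 other inflammasome genes, 16 were higher and 6 lower. No gene of antigen processing was in the set, where 23 of 30 were higher and 1 lower.

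Of 168 measured transcription factors of a fixed list, 3 were members. GATA6, a factor of endoderm (5.24 and 5.36), JUN, a subunit of AP-1 (4.15 and 4.17), and NR3C1, the glucocorticoid receptor (4.34 and 4.70), were these members. Of the other 165, 48 were higher and 59 lower, with a median of -0.04. The list does not hold every transcription factor, so its count is not that of the whole set. FLI1, SP5, HOXA3, HOXA4 and ZSCAN16 were transcription factors of the set outside the list, and so was EPAS1. EPAS1, the hypoxia factor HIF-2 alpha, was in the set at 5.68 and 5.91, though its other probe read 0.93 and 1.62. PCGF5, a subunit of Polycomb repressive complex 1, was at 4.75 and 4.48, by 1 of 3 probes.

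Enzymes, cytoskeletal and growth-control genes were described next, and many other members belong to no list. ALDH1A3, which makes retinoic acid (5.93 and 6.75), NNMT, which methylates nicotinamide (5.44 and 6.30), and PLA2G16, a phospholipase now named PLAAT3 (6.09 and 5.68), were enzymes of the set besides GPX1. CAV1, the coat protein of caveolae (4.27 and 4.32), SDPR, now CAVIN2 (4.21 and 4.74), TUBA4A, a tubulin (4.15 and 4.79), and TMSB10, which binds actin monomers (4.57 and 4.08), came from the cytoskeleton and caveolae list. PHLDA1 (6.06 and 6.61), the small GTPase RND3 (5.11 and 6.33), UCHL1, a ubiquitin hydrolase (4.27 and 4.29), and the imprinted PHLDA2 (4.35 and 4.55) came from the growth-control list. LGALS3, the galactose-binding lectin galectin-3, had M of 6.39 and 5.50. Of 54 other redox and detoxification enzymes, 25 were higher and 14 lower, of 63 other cytoskeleton and caveolae genes, 33 and 9, and of 53 other growth-control genes, 37 and 6. Of 55 other glycosyltransferases and mucins, 23 were higher and 14 lower, and of 70 other transporters, 30 and 14, with SLC22A3 in the set at 4.10 and 4.35. None of the 31 measured cancer testis antigens was in the set, and 5 of them were higher and 3 lower. PHLDA2 was the single member among 23 imprinted genes, of which 8 of the other 22 were higher and 4 lower.

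Next, the Ctrl channel was read to see which of these genes were off in Ctrl cells. On the GALNT3 KO arrays, which the rule did not use, the Ctrl channel was not well above background on both arrays for 26 of the 179 names (14.5%), against 7.26% of all 41000 probes. The rule favours names with a low Ctrl signal, and Ctrl RNA of the same line was read here. A share above that of all probes is therefore not independent of the choice, and it is a description. Among the 137 genes it was 23 (16.8%). The 26 became 8 with the softer detection flag, 16 when all probes of a gene had to be dim, and 33 without the first or 43 without the second GALNT3 KO array. The Ctrl channel was well above background on both arrays for 129 names, so most names in the set were measurable in Ctrl RNA and not off by this reading. The names below background included EFEMP1, GATA6, GALNT3, JUN, IGFBP7, CARD16, ROR1, BEX1, NRP1, LYPLAL1, HOXA3 and HOTAIRM1. A few names were bright in Ctrl, with Ctrl log2 signals after loess and Aquantile normalization on the GALNT3 KO arrays of 16.41 and 16.85 for FTH1, the ferritin heavy chain, 15.04 and 14.94 for UCHL1 and 12.60 and 13.39 for CYR61. For FTH1 the Ctrl channel was dimmer on the arrays labelled as GALNT3/T6 KO, by 2.33 (log2), so its M does not rest on the KO channel alone. With bulk RNA, a rise in all cells and a rise in a share of them cannot be told apart.

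The Ctrl channel itself differed between the array groups. For the names of the set it was brighter on the arrays labelled as GALNT3/T6 KO than it was in the GALNT3 KO hybridizations, by a median of 1.21 (log2), with 164 of 179 above 0 and 95 above 1. Over all probes the median was -0.08, with 35.5% above 0 and 0.917% above 1. IGFBP7, for example, had Ctrl log2 signals of 6.74 and 6.67 on the GALNT3 KO arrays and 12.26 and 11.91 on the others, where its KO signals were 16.76 and 17.07. BEX1, a small X-linked protein of brain, rose most in the Ctrl channel, from 6.68 and 6.51 to 12.22 and 12.13 (a shift of 5.58), and FTH1 shifted furthest the other way. All 25 keratin copies were brighter, by a median of 3.26. Of the 26 names below background in Ctrl on both GALNT3 KO arrays, 21 were above it in Ctrl on both of the other arrays. The Ctrl signal before normalization was a median of 8.32% of the KO signal of the same spots on the first array labelled as GALNT3/T6 KO and 3.69% on the second. The cause of the brighter Ctrl channel was not tested, and a Ctrl signal that moves with the KO signal makes M smaller. C17orf104, now MEIOC, was the single member not well above background in Ctrl on both arrays labelled as GALNT3/T6 KO, where its probe was at least 9.69-fold higher in KO.

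**Figure D2:**
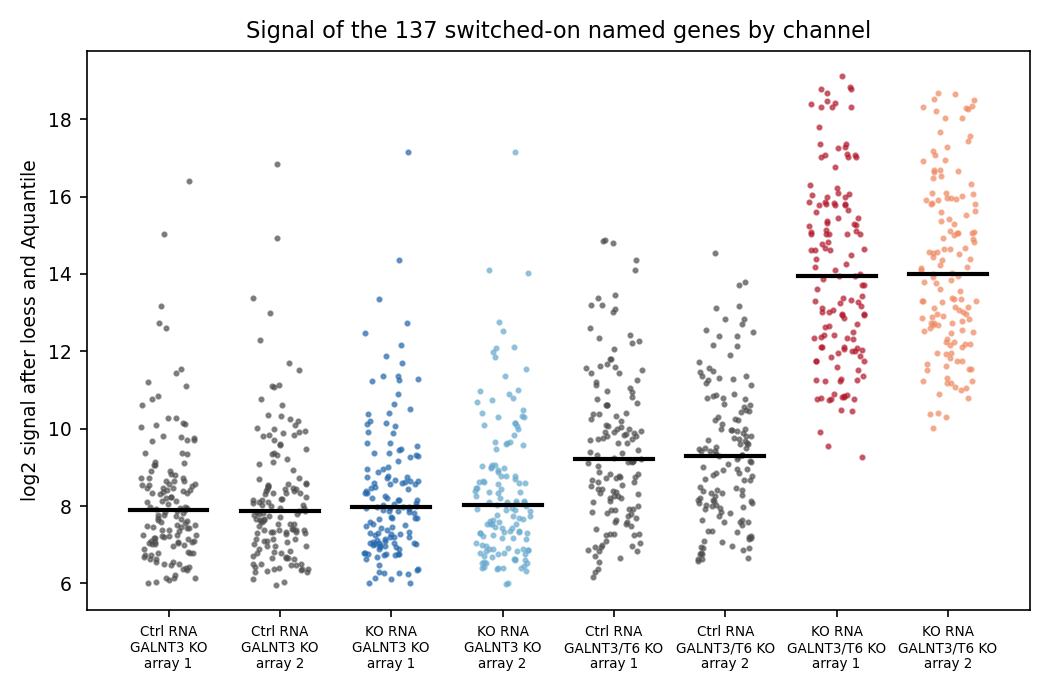
The log2 signal after loess and Aquantile normalization is shown for the 137 genes of the set in each channel of the 4 arrays, with 1 point per gene and a bar at the median. The Ctrl channel (grey) sits higher on the arrays labelled as GALNT3/T6 KO than it does for GALNT3 KO, by a median of 0.84 over these genes, and the KO channel of the former is the brightest of all.

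The GALNT3 KO arrays did not choose the set, so it was tested on them, although the fit takes its spread from all 4 arrays and a Ctrl extract shared with the choosing arrays cannot be told apart from a KO effect. Of the 179 names, 14 were higher and 8 lower in GALNT3 KO than in Ctrl by limma at an adjusted p of at most 0.05, against 4.67% of all genes higher and 6.33% lower. As shares, 14 of 179 is above that background and 8 of 179 is below it, and this split was not tested. Counted in either direction, 22 of 179 names were called, against 11% of all genes, which is close to background. The 179 names include the keratin copies. Among the 137 genes alone, 13 were higher and 8 lower. The median log2 ratio was 0.16 over the set and 0.02 over all genes. At an unadjusted p under 0.05 there were 53. A total of 144 names were well above background in a channel on both GALNT3 KO arrays, and 15 on neither. Most of the set was thus not called on the arrays labelled GALNT3 KO, which does not show that these genes were unchanged.

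The largest rise in GALNT3 KO was S100A10, with log2 ratios of 2.33 and 2.67 (mean 2.50, standard error 0.12, adjusted p = 0.00566 from limma). LAMB1 followed at 2.59 and 1.97 (mean 2.28, standard error 0.23, adjusted p = 0.0194), and CDK6, a kinase of the G1 phase, at 2.11 and 1.34 (mean 1.73, adjusted p = 0.0306). By the fitted probes, both clones lay well above 0 in each of these genes. CDK6 had another probe at M of -0.24 and -0.05 on the GALNT3 KO arrays, where it did not rise. That probe read 0.50 and 1.04 on the arrays labelled as GALNT3/T6 KO. Smaller rises were called for BEX2 (1.38), OGFRL1 (1.29), ENC1 (1.23), SPATS2L (1.19), PHLDA1 (1.05), PERP (0.76), TPD52L1 (0.68), GPX1 (0.64) and PHLDB2 (0.41), and for the unnamed probe A_23_P103951 (1.38). GATA6 was called too, but its Ctrl channel was below background on both arrays and its KO channel above it on 1, which leaves a bound of at least 1.15-fold.

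In 8 genes of the set GALNT3 KO read lower than Ctrl. DKK3 had log2 ratios of -1.29 and -1.33 (mean -1.31, standard error 0.08, adjusted p = 0.00867 from limma), beside M of 5.40 and 5.35 on the arrays labelled as GALNT3/T6 KO. Its other probes had M of -0.21 and -0.58, 0.36 and 0.11, and 2.95 and 2.89 on those arrays. In the same order, they had -0.67 and -0.56, 0.29 and 0.22, and -0.27 and 0.35 on the GALNT3 KO arrays. The opposite directions of DKK3 thus rest on a single probe. AMIGO2, an adhesion protein of neurons (-0.84), PMP22, a protein of peripheral myelin (-0.84), UCHL1 (-0.75), the water channel AQP11 (-0.74), PDE4DIP (-0.52) and SSFA2 (-0.44) were lower by less. DSC3 was called through a brighter probe that is not a member, at least 2.2-fold lower, since its KO channel was below background on both arrays. These 22 calls rest on both GALNT3 KO arrays. With either left out 0 calls remained (lowest adjusted p 0.281 and 0.338), and with either array labelled as GALNT3/T6 KO left out there were 66.

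**Figure D3:**
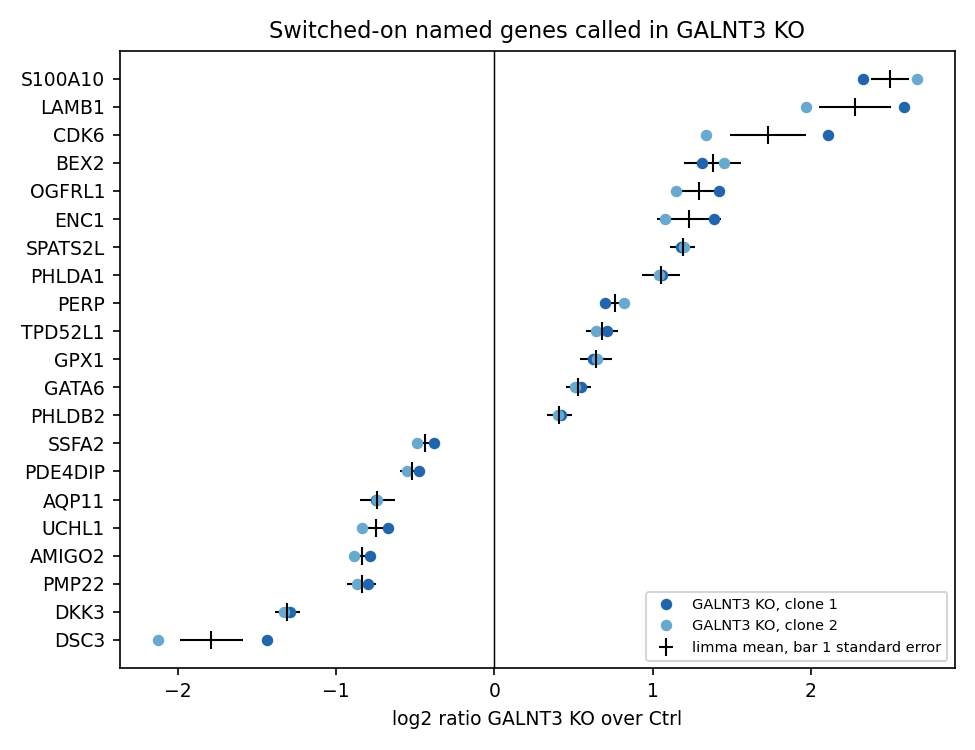
The log2 ratio of GALNT3 KO over Ctrl is plotted for the 21 named genes of the set called by limma, with a point for each clone, a tick at the fitted mean and a bar of 1 standard error on either side. S100A10 and LAMB1 lie furthest to the right at means of 2.50 and 2.28, and DSC3 and DKK3 furthest to the left at -1.79 and -1.31, while the fitted values of GATA6 and DSC3 rest on a channel below background.

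Probes of the same gene did not always move together. Of the 137 genes, 69 had 1 probe on the array. Of the 68 with several, all probes passed in 6 (CASP4, SLPI, IFI16, PRSS23, TMTC1 and FAM129A) and a probe failed in 62. The 93 other probes of these genes split widely, with 39 at M of at least 2 on both arrays labelled as GALNT3/T6 KO and 28 below 1 on both, in 22 genes. MET had other probes at 1.15 and 1.38 and at 1.5 and 1.99, beside its member at 5.51 and 6.02. HOXA3 had one at 0.32 and 0.52, and NRP1 had probes at 3.21 and 3.77, 0.63 and 0.47, and 0.27 and 0.30. CARD16 had one at 0.13 and -0.06, LAMA4 at 0.74 and 0.86, PLA2G16 at 0.70 and 0.71 and SLC22A3 at 0.18 and 0.18. A single probe decides membership in such genes, and which transcript each probe reads was not settled here. In the fit, which takes the brightest probe of a gene, 155 of 179 names were represented by a member probe.

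Which cells express genes like these was asked with marker lists of 10 cell types, counted without the members. On the arrays labelled as GALNT3/T6 KO, 16 of 26 other epithelial markers rose and 0 fell (median 0.50), and 3 more (KRT18, KRT19 and MAL2) were in the set. SPINT2, a protease inhibitor of epithelia, had log2 ratios of 2.97 and 3.28 (mean 3.12, adjusted p = 0.000227 from limma), KRT7 of 2.62 and 3.16 (mean 2.89), KRT8 of 2.59 and 3.06 (mean 2.83) and the sorting adaptor AP1M2 of 2.21 and 1.91 (mean 2.06). At an unadjusted p of at most 0.05 with a change of at least 1.5-fold, 11 were called, all higher. Without the 3 members, the summed signal of the epithelial list was 119373 and 198526 in the KO channel of these arrays and 29811 and 33708 in their Ctrl channel, beside 17118 to 22965 in the 4 channels of the GALNT3 KO arrays. In the Ctrl channel of both GALNT3 KO arrays, 23 of the 29 measured epithelial markers were well above background. Of all spots other than controls, 88.1% and 91.4% passed that flag in the Ctrl channel of each array alone. The count is therefore no result about these markers.

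Mesothelial markers, those of the lining of the body cavities, rose as well. Of 10, 6 were higher and 1 lower (median 1.27), led by ITLN1 (3.51), BNC1 (3.46), LRRN4 (2.22) and UPK1B (2.04), with BCHE lower at -1.95. Of 19 other markers of Mullerian and ovarian cancer cells, 8 were higher and 1 lower (median 0.41), with PAX8 at 1.21, MSLN at 1.08, WT1 at 1.01 and CLU at 0.97, and WFDC2 lower at -1.24. SLPI was the member of that list. Of 16 other squamous and basal markers, 7 were higher and 1 lower (median 0.27), with S100A2 at 3.11 and the other 6 at 0.56 or less. DSG3 was at least 1.84-fold lower, with its KO channel below background.

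Fibroblast and mesenchymal markers split. Of 26, none was in the set, 10 were higher and 11 lower (median -0.24). FN1 (3.55), PDGFRB (3.44), FAP (2.88) and ZEB2 (2.71) were higher, and SNAI2 (-2.80), VIM (-2.36), ACTA2 (-2.22) and TWIST1 (-2.09) lower. VIM, the filament protein vimentin, carried most of the summed Ctrl signal of this list. Without VIM the sum was 117641 and 196875 in KO and 188995 and 183291 in Ctrl, which overlap. Of 11 endothelial markers 3 were higher and 3 lower, of 15 haematopoietic 6 and 2, of 19 neural 6 and 3, of 16 other hepatocyte and gut markers 4 and 4 (GATA6 being the member there), and of 12 germ and pluripotent markers 2 and 3, with LIN28B at -2.86 and SALL4 at -2.27. Over all 169 markers outside the set, 67 were higher and 29 lower (median 0.24), against 24.8% and 23.1% of all genes. The endothelial, neural and gut counts lie near those shares and are no result about these lists. No list was on or off as a whole, and the part of other cells in the culture was not tested.

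**Figure D4:**
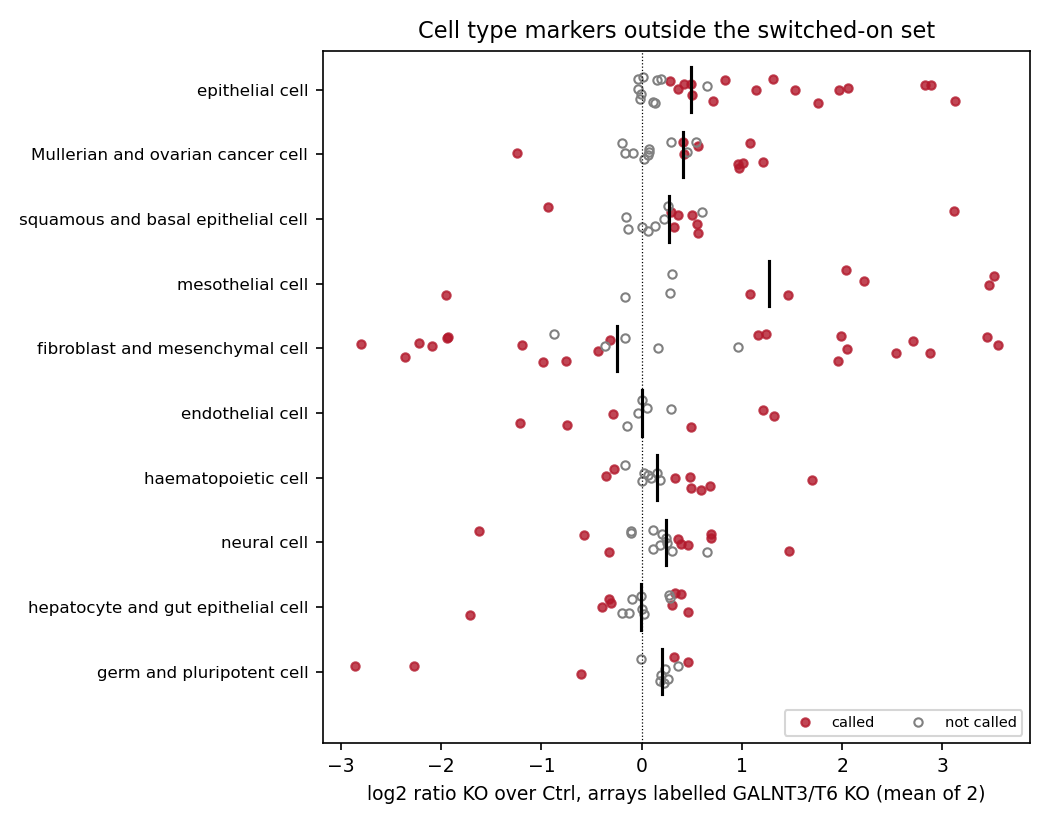
The mean log2 ratio of KO over Ctrl on the 2 arrays labelled as GALNT3/T6 KO is plotted for each measured marker outside the set, by cell type list, with filled points for genes called by limma, open points for the others and a bar at the list's median. The 16 called epithelial markers all lie to the right of 0, and the mesenchymal list is spread from -2.80 to 3.55.

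Genes of silencing pathways, those that set or read a mark and those that remove it, were then counted without the member PCGF5. On the arrays labelled as GALNT3/T6 KO, 22 of 118 such genes over 5 lists rose and 50 fell (median -0.34). Of all genes, 24.8% rose and 23.1% fell there. In GALNT3 KO 9 of the 118 rose and 14 fell, against 4.67% and 6.33% of all genes. The share of higher among the called, 22 of 72, became 16 of 80 with the log ratios of the scanner software. The list of histone H3 lysine 9 methylation and heterochromatin leaned furthest, with 0 higher and 13 lower of 22 (median -1.13). MORC2 had log2 ratios of -2.49 and -1.90 (mean -2.19, adjusted p = 0.00241 from limma), CBX5, the heterochromatin protein HP1 alpha, of -1.63 and -1.88 (mean -1.76), and the methyltransferases SETDB1 and EHMT1 of -1.86 and -1.45 (mean -1.66) and of -2.01 and -1.30 (mean -1.65). Of its 13 lower genes, 3 (KDM3B, KDM4A and KDM4C) are demethylases that remove the mark, and over all lists 6 of the 50 lower and 2 of the 22 higher genes belong to factors that remove or counter a silencing mark. In GALNT3 KO, 1 gene of this list was lower and 0 higher.

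Of 30 Polycomb genes, 4 were higher and 13 lower (median -0.20). RYBP (-1.90), BMI1 (-1.48), CBX7 (-1.05) and JARID2 (-0.89) were lowest, and PHC2 (0.73), PCGF6 (0.64), PCGF1 (0.63) and PHF1 (0.41) were higher. Of 30 genes of histone deacetylation, 7 were higher and 10 lower (median -0.06), with CHD3 at 1.51, HDAC10 and HDAC5 each at 0.85 and SIRT7 at 0.79, and with KDM1A at -1.49, MTA1 at -1.35, SIRT1 at -1.26 and HDAC2 at -1.22. Neither list moved one way as a whole. Over all genes, 24.8% were higher and 23.1% lower, and the deacetylation counts lie not far from these shares.

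DNA methylation genes went both ways, with 7 higher and 6 lower of 21 (median 0.03), against 24.8% and 23.1% of all genes. Counts this near those shares are no result about the list. ZBTB38 (2.53) and MBD2 (1.74), which bind methylated DNA, were higher, as were GADD45B (2.10) and GADD45A (0.93). TET2 (-2.76), TET1 (-2.45) and TDG (-1.77), enzymes that remove methylation, were lower. Of 15 repressors of epithelial genes, 4 were higher and 8 lower (median -0.44). ZEB2 (2.71), SNAI1 (2.70), TWIST2 (1.31) and FOXC1 (1.26) were higher, and SNAI2 (-2.80), TWIST1 (-2.09) and TCF4 (-1.79) lower. Members of one repressor family thus moved in opposite directions. The list was described by mRNA only, and whether any of these genes bears on the set was not tested.

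**Figure D5:**
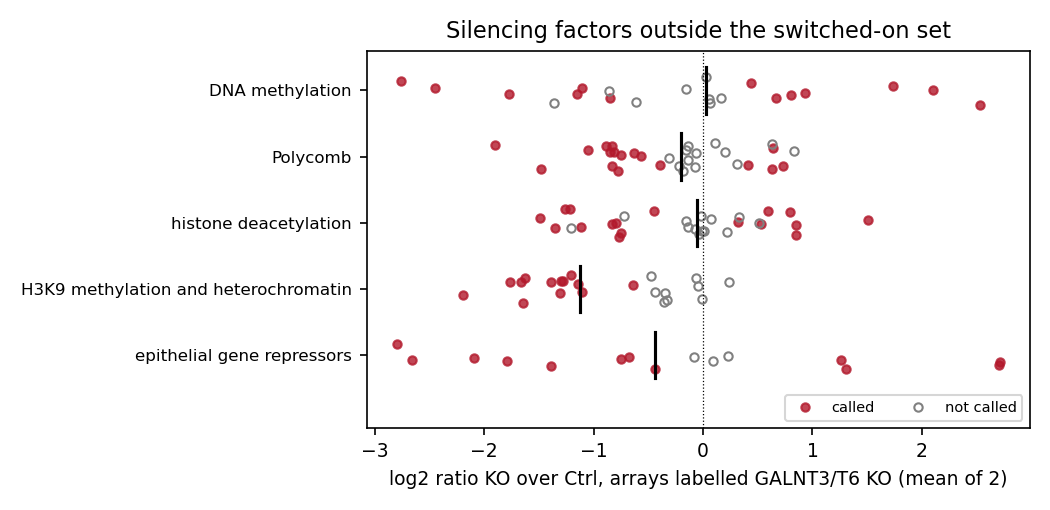
The mean log2 ratio of KO over Ctrl on the 2 arrays labelled as GALNT3/T6 KO is plotted for each silencing gene outside the set, by list, with filled points for genes called by limma, open points for the others and a bar at the list's median. In the histone H3 lysine 9 list every called gene lies to the left of 0, while the other lists hold called genes on both sides.

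The positions of the genes were compared last. Of the 137 genes, 15 had another gene of the set within 200 kb (hg19 probe positions). These were CASP4, CASP1 and CARD16, SAMD9 and SAMD9L, LXN and RARRES1, HOXA3 and HOXA4, F2R and F2RL2, NABP1 and SDPR, and NOV and MAL2. Among 427 neighbours outside the set, 177 were higher on the arrays labelled as GALNT3/T6 KO (41.5%) and 73 lower (17.1%), with a median of 0.22. Of the protein-coding genes outside the set, 26.4% were higher and 27.2% lower. CASP5, beside CASP1, had log2 ratios of 3.79 and 3.91 (mean 3.85, adjusted p = 9.15e-05 from limma), while CARD18 in the same window was at 0.15 (adjusted p = 0.215). In the HOXA cluster HOXA7 (3.74), HOXA5 (2.82) and HOXA2 (1.54) were higher, HOXA13 was lower at -2.62, and HOXA6 was at -0.10 (adjusted p = 0.34).

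Counted by chromosome, 18 of 1036 measured genes of chromosome 11 were in the set (1.74%), 16 of 1107 of chromosome 2 (1.45%) and 14 of 778 of chromosome 7 (1.8%). Chromosome 18 had 5 of 242 (2.07%). Chromosome 17 had 3 of 1032 (0.291%) and chromosome 19 had 2 of 1255 (0.159%). Chromosomes 21 and 22 had none. These shares are descriptions, and copy number of the clones was not tested.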

How the data were processed

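Total RNA of 4 KO clones was hybridized against Ctrl RNA on 4 Agilent 4x44K arrays, all on 1 slide. The authors extracted spot intensity with Agilent Feature Extraction (version 8.5.1.1 in the submitters' processing notes, 10.7.3.1 in the file headers, hg19 design), and each deposited file holds mean and background intensity per channel. The deposited value table holds the log10 ratio of Cy5 over Cy3: it matched the scanner's own log10 ratio within 0.005, with column medians of 0.00192, 0.00218, 0.0046 and 0. Its scale and direction are thereby known. Each array had 45015 spots (1639 controls). Of the others, 86.9% to 93.8% were well above background per channel, and 0 were saturated. Non-uniform spots (45, 5, 4 and 4) were left out of the fit.

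M for choosing names was computed as stated in the report. For tests, intensities were corrected with normexp (offset 50) and loess within arrays, and log2 ratios from the deposited intensities were fitted with limma 3.58.1 (R 4.3.3), with a mean per group over all 4 arrays, on the brightest probe of each of 27221 genes kept if a channel passed the scanner's above-background flag on both arrays of a group. The ratio was set against 0, which leaves out the spread of Ctrl. Adjusted p is Benjamini-Hochberg. "At least" folds set the bright channel against the higher of the dim signal and the lowest detected signal, per channel after loess and Aquantile, and are open to dye bias. P-values measure the spread between 2 clones a group. Scripts for the fit were tested on simulated data. Gene symbols came from the array files, updated through RefSeq. Genes named are the 25 names with the highest lower M, members of the marker, silencing and imprinting lists, up to 4 members per role list, members called in GALNT3 KO, 3 names on either side of the limit, GALNT3 and GALNT6, and up to 4 list genes called in each direction. BEX1, LYPLAL1, HOXA3, FTH1, KCNS3 and a few others were named after their values were seen, as were neighbours at the caspase and HOXA loci. Single values of a few genes are not reported here, though list counts include them. Members and lists were chosen with earlier results of these data known. Alternatives changed background correction, normalization, probe choice, filter, test, criterion and arrays.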

Additional observations from a re-analysis of the deposited data

Results flagged for a closer look

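Of 90 named list genes outside the set, 25 moved one way on both arrays labelled as GALNT3/T6 KO and the opposite way on both GALNT3 KO arrays, and the difference itself was not tested. In 5 of them both effects were called by limma, with mean log2 ratios first for the arrays labelled as GALNT3/T6 KO and then for GALNT3 KO. These were WFDC2, a secreted marker of ovarian cancer (-1.24 and 1.51, adjusted p = 0.0118 in GALNT3 KO), the transcription factor TCF4 (-1.79 and 0.86, adjusted p = 0.0251), the chromatin remodeller CHD3 (1.51 and -0.43, adjusted p = 0.0457), GADD45A (0.93 and -0.44, adjusted p = 0.0476) and APOA2 (-0.33 and 0.47, adjusted p = 0.0495). The other 20 were called only on the arrays labelled as GALNT3/T6 KO. Among the epithelial, squamous and Mullerian markers these were KRT8 (2.83 and -0.22), AP1M2 (2.06 and -0.30), S100A2 (3.11 and -0.21), WT1 (1.01 and -0.12), MSLN (1.08 and -0.21) and CLU (0.97 and -0.53). Among the other markers they were BNC1 (3.46 and -0.09), PDGFRB (3.44 and -0.82), FAP (2.88 and -0.26), VIM (-2.36 and 1.12), CD74 (-0.28 and 0.14), SNAP25 (1.47 and -0.36), GFAP (0.69 and -0.21), NANOG (-0.61 and 0.09) and LIN28B (-2.86 and 0.31). Among the silencing genes they were MBD2 (1.74 and -0.08), ZBTB38 (2.53 and -0.11), GADD45B (2.10 and -0.29), SIRT7 (0.79 and -0.59) and FOXC1 (1.26 and -0.13). Both comparisons are against Ctrl RNA. The 90 genes were named because they were called on the arrays labelled as GALNT3/T6 KO. No share of opposite directions over all genes was computed, so the count of 25 has no background beside it. Several GALNT3 KO values lie near 0, such as -0.09 for BNC1 and -0.08 for MBD2.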

How the results depend on the processing

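The number of names meeting the rule, 179, became 448 at M of at least 3, 48 at M of at least 5 and 119 with the mean of all probes of a gene. It ran from 192 to 273 with 1 array left out (273 without the first). With normexp and loess ratios it was 135, of which 134 were shared, and with the scanner's or the deposited log ratio 188 and 187, of which 152 and 151 were shared. Names with Ctrl below background, 26, fell to 8 with the softer detection flag and 16 when all probes of a gene had to be dim, and ran from 33 to 43 with 1 array left out. The 22 names called in GALNT3 KO became 66 with only the arrays of that group (34.7% of all genes were then called), 0 with an ordinary t statistic, and 0 to 66 with 1 array left out. The clone numbers did not pair the arrays (r = -0.239 over 27183 genes), and with a replicate block the calls fell to 2, with the silencing calls at 64 and the epithelial calls at 13. With the numbers crossed, a fit chosen after seeing the data, there were 26, 84 and 15 calls. The 72 silencing calls fell to 21 with an ordinary t statistic and ran from 60 to 85 with 1 array left out. The 16 epithelial calls fell to 10 with only that group's arrays and 6 with an ordinary t statistic, and ran from 10 to 14 with 1 array left out (10 without either GALNT3 KO array). ROBO4 turned from -0.29 to 0.26 with the mean of all probes. The causes were not tested. A stricter limit for CpG-rich promoters was not run, since too few genes had a promoter sequence.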
